A study of Mus musculus with 2 samples.

Results

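Of the sites of open chromatin shared by 2 libraries of mouse frontal cortex, 1587 of 40822 (3.89%) lay in gene deserts. A site counted as shared if, on the 19 autosomes, a peak of replicate 1 shared 1 bp or more with a peak of replicate 2. It counted as a gene-desert site if its midpoint lay in no gene of any type annotated by GENCODE M21 on mm10 and was more than 50 kb from the nearest transcription start site (TSS). The rule used position and the presence of a peak in both libraries. The first bears on spacing and the second on strength, since shared peaks were the stronger ones, and the other position classes were held to the same sharing rule. Sequence and footprints did not enter the rule.

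The samples form 1 group: frontal cortex of male B6CASTF1/J mice, the first-generation offspring of C57BL/6J and CAST, at 10 days of age, with no treatment or second genotype. The labels call the 2 libraries biological replicates from separate biosamples. A note on each gives 3 males without saying whether tissue was pooled, and both carry the same donor entry, so separate animals are not established and the spread between the libraries may be technical. In DNase-seq the enzyme DNase I cuts nuclei where DNA is accessible. A cluster of cuts is called a peak, a wider region of raised cutting a hotspot, and a short protected stretch inside one, such as a bound protein can leave, a footprint.

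Regulatory DNA far from any gene includes enhancers, which can contact a promoter over long distances by looping of the DNA, and sites bound by CTCF, the protein at which cohesin-driven loops stop. Developmental regulators often have wide gene-free flanks that hold enhancers. In cortex, neuronal bHLH factors such as NEUROD2 and NEUROD6 bind E-boxes, NFI factors act in glia and in maturing neurons, RFX factors act on cilium genes and elsewhere, and AP-1 (FOS and JUN) and MEF2 respond to neuronal activity.

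The 8 sequences below show what such DNA looks like. Each is the strongest gene-desert site of at most 300 bp that holds the named motif and was not already taken by a motif earlier in the list of CTCF, AP-1, NFI, RFX, MEF2, POU, neuronal E-box and SOX. They are read from the plus strand of the GRCm38 (mm10) C57BL/6J reference, 5′ to 3′, and the CAST allele of these mice can differ from it. Capitals mark the match of the named motif on either strand. All are intergenic. The CTCF site lies at chr13:84758604-84758844, the NFI site at chr15:62903066-62903333, the RFX site at chr2:21918305-21918603, the AP-1 site at chr10:126511593-126511827, the MEF2 site at chr15:64687262-64687517, the POU site at chr1:193576018-193576293, the neuronal E-box site at chr9:101690204-101690465 and the SOX site at chr13:104518349-104518627.
CTCF site: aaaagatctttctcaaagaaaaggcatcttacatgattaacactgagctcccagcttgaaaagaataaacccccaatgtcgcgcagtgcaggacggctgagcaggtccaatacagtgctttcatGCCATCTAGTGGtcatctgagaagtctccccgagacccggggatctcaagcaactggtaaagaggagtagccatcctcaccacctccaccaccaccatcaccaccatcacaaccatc
NFI site: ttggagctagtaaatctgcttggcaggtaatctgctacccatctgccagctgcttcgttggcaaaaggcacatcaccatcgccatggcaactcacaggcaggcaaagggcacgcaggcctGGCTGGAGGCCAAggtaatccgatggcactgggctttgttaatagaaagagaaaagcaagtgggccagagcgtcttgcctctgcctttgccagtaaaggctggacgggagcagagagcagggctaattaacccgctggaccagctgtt
RFX site: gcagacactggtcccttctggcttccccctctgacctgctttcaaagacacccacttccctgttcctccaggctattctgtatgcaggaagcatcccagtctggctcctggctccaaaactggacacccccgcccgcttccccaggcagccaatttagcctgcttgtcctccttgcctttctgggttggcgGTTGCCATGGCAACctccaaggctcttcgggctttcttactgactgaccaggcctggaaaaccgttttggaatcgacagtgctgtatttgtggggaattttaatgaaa
AP-1 site: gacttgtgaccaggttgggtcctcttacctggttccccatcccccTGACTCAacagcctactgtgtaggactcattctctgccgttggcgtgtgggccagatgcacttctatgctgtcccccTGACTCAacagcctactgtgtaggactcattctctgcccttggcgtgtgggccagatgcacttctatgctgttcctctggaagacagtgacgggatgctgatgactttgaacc
MEF2 site: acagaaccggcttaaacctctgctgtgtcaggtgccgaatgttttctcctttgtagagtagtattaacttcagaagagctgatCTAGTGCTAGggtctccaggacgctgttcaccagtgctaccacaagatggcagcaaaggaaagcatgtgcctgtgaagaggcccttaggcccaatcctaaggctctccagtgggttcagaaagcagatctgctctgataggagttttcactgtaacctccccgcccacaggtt
POU site: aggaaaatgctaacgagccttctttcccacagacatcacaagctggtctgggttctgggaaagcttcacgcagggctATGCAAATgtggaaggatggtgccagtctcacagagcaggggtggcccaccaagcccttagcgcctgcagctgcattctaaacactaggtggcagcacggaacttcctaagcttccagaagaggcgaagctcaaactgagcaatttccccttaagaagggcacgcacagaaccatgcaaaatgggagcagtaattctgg
neuronal E-box site: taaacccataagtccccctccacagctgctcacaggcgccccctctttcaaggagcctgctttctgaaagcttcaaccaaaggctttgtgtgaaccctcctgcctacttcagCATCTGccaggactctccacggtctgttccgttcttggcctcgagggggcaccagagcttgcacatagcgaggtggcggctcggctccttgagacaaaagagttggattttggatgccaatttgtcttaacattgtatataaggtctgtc
SOX site: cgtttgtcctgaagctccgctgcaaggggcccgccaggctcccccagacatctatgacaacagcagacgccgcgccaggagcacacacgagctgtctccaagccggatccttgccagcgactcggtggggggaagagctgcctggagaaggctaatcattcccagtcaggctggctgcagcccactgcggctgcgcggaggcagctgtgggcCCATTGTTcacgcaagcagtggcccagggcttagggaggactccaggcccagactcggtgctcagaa

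Several of these sites carried more than 1 motif. In the NFI site the match was joined by 1 RFX match, 1 neuronal E-box, 2 CAGCTG E-boxes and 1 homeobox match, and the MEF2 site held 1 CTCF match. The capitals in the RFX site are 2 overlapping matches on opposite strands, which together read as a palindrome. The AP-1 site is built from a tandem duplication: its 2 AP-1 matches start at bases 46 and 123, and 76 of 77 bases were the same in the copies, which lie 77 bp apart. Only 1 of those matches lay in a footprint in each library. The marked CTCF, NFI and RFX matches overlapped a footprint in both libraries, and the marked MEF2, POU, neuronal E-box and SOX matches overlapped none in either library.

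The DNA that the rule admits was sparsely open. Gene deserts of this definition made up 371 Mb of 2396 Mb of autosomal sequence (15.5%) in 3523 stretches, and only 905 stretches (25.7%) held a site. They carried 4.28 sites per Mb, against 19.4 shared peaks per Mb of the remaining DNA. That DNA holds all 20225 promoter sites (within 1 kb of a TSS), or 49.5% of shared peaks. The rule keeps these out of deserts, so part of the contrast follows from the rule. Stretches with a site had a median length of 112 kb and those without one 50.1 kb. Long deserts could also be empty: the longest stretch, 1156 kb of chromosome 1, held none, and a stretch of 1083 kb on chromosome 6 was likewise without a site. By chromosome the frequency ran from 2.77 per Mb on chromosome 17 to 6.56 on chromosome 7, with a median of 4.25.

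Sites thinned out with distance from the nearest TSS. Between 50 and 75 kb there were 6.08 sites per Mb of desert DNA at that distance (95% interval 5.65 to 6.52, from 764 sites), and between 75 and 100 kb 4.49 (4.04 to 4.99). The frequency was 3.36 per Mb at 100 to 150 kb, 2.76 at 150 to 200 kb and 1.78 (1.41 to 2.23, from 76 sites) beyond 200 kb. These intervals cover counting error only. The median site was 77.2 kb from the nearest TSS of any type and 158 kb from the nearest protein-coding TSS, and 27 sites were more than 1 Mb from a protein-coding TSS. The nearest TSS belonged to a protein-coding gene for 411 sites, to a processed pseudogene for 393 and to a lincRNA, a long intergenic noncoding RNA, for 392.

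**Figure D1:**
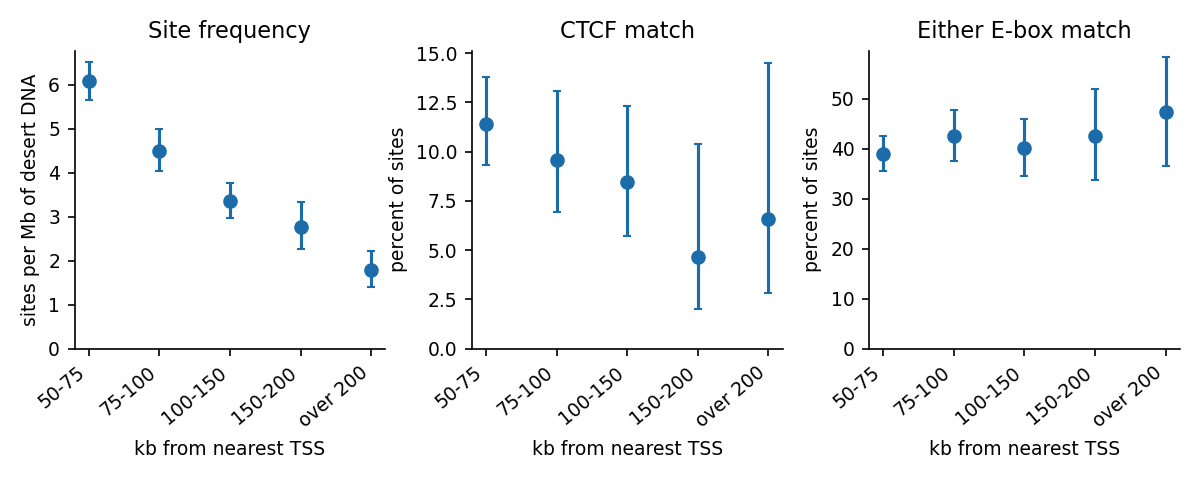
Sites per Mb of desert DNA (left), percent of sites with a CTCF match (middle) and percent with either E-box match (right) against distance to the nearest TSS in kb, with 95% intervals for counting error. Site frequency falls from 6.08 to 1.78 per Mb, the CTCF share moves from 11.4% to 6.58% with wide intervals, and the E-box share lies between 39.0% and 47.4%.

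The sites were weak. Strength here is the cleavage density that the authors gave each peak, a read-depth normalised signal with no error of its own. In bulk tissue, a weak site in many cells and a strong site in few cannot be told apart. The median density over the gene-desert sites was 0.931 in replicate 1, with a range of 0.353 to 15.0, and 0.752 in replicate 2, with a range of 0.279 to 11.6. Ranked among all shared autosomal peaks of the same library, the median site stood at percentile 19.1 in replicate 1 and 20.4 in replicate 2 (mean 19.8 ± 0.910, SD, n = 2 libraries). Intergenic sites at 10 to 50 kb from a TSS stood at 32.7 and 33.1, sites within genes more than 20 kb from a TSS at 28.8 and 31.2, and promoter sites (within 1 kb) at 69.4 and 67.8. In each library the gene-desert median was the lowest of the 6 position classes, and the gap to the next class, 9.7 and 10.8 points, exceeded the 1.3 points between the libraries. With 2 libraries of 1 group, no test over samples can be made, and these are descriptions.

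By replicate 1 density, 50.9% of gene-desert sites were in the weakest 20% of shared peaks and 1.64% in the strongest 20%. The weakest 25% in both libraries held 750 sites (47.3%), against 18.2% of all shared peaks. Only 3 sites were in the strongest 10% in both, against 9.02% of all shared peaks. The values showed no step at the 50 kb limit: the 213 sites just inside it, at 50 to 55 kb, had median percentiles of 25.4 and 27.1, and the 220 intergenic sites just outside it, at 45 to 50 kb, had 25.4 and 23.7. Beyond 200 kb the medians were 11.2 and 7.84.

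**Figure D2:**
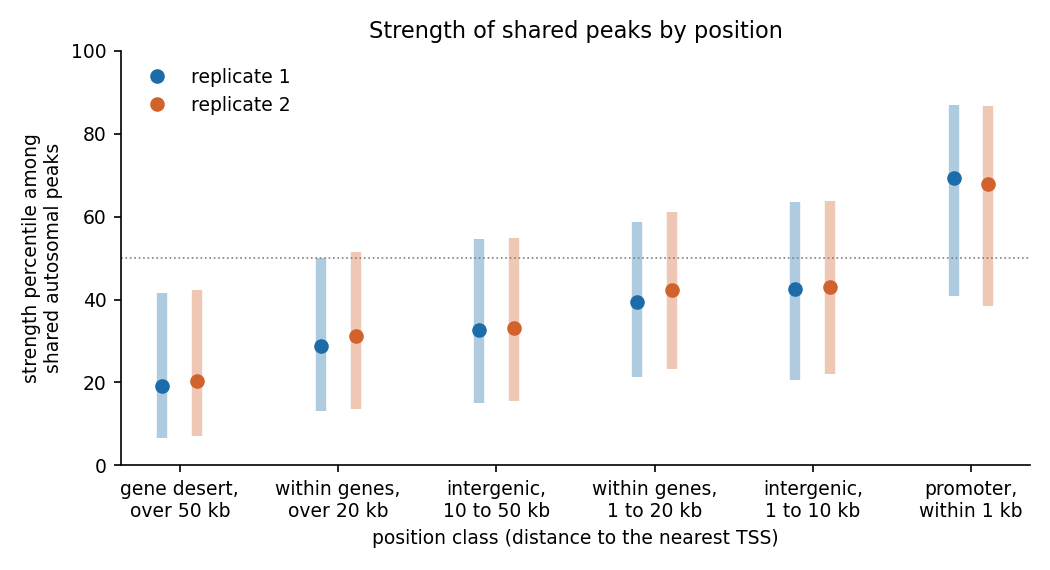
Strength percentile among shared autosomal peaks (vertical axis) for 6 position classes, with the median (point) and the middle 50% of sites (bar) for each replicate. Gene-desert sites have medians of 19.1 and 20.4, below the 5 other classes in both libraries.

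The strongest gene-desert site, by the mean of its ranks in both libraries, stood far from the rest. It lies at chr8:126666457-126666780, 72.6 kb from the TSS of Irf2bp2, which encodes a partner of the repressor IRF2. Its density was 15.0 in replicate 1 and 11.6 in replicate 2, its hotspot reached a −log10 FDR of 81.6 and 139, and it held 10 and 7 footprints. The next by mean rank, the RFX site printed above, between Gpr158 and Myo3a, had densities of 6.76 and 5.31. The third, which in replicate 2 was above the RFX site, was the duplicated AP-1 site between Lrig3 and Atp23, at 6.39 and 5.48. The fourth, at chr2:33547013-33547262, between Zbtb43 and Lmx1b, the latter a homeobox regulator, had 5.14 and 4.27. All of the 10 strongest sites were also in the alignment-derived lists described below, as were 76.6% of all gene-desert sites. Of the 10, 9 held at least 1 of the 20 motifs, and 28.4% of all gene-desert sites held none.

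The sites farthest from any TSS lay beside cadherin and ephrin receptor genes. The farthest, at chr8:102000367-102000623 between Cdh8 and Cdh11, was 461 kb from the nearest TSS and had densities of 1.06 and 0.603, with 6 and 3 footprints. A neighbour at chr8:102085998-102086256 had 0.545 and 0.739. The other 3 lie between Epha5 and Cenpc1 on chromosome 5, at 0.652, 0.599 and 0.588 in replicate 1 and at 1.11, 0.480 and 0.480 in replicate 2. The last 2 touch each other, and their equal values in replicate 2 may come from the same replicate 2 peak. All 5 were weak in replicate 1, with the highest at percentile 27.4, and in replicate 2 the highest was at 47.5.

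The libraries agreed in outline on single sites but not in detail. Across the 1587 sites, the densities of the 2 libraries were correlated at 0.772 by rank (Spearman) and at 0.823 on the log2 scale (Pearson). These describe sites of the same 2 libraries, which are not independent replicates. Promoters, which span a wider range of densities, had a rank correlation of 0.955, and the part of that range in the difference was not tested. Replicate 1 gave the higher density at 80.6% of gene-desert sites, with a median ratio of 1.26, and at 87.1% of all shared peaks. Percentiles were more than 20 points apart at 225 sites (14.2%), against 11.5% of all shared peaks. Within a library the density moves in equal steps, and the step is 1.65 times larger in replicate 1. If a step is worth the same number of reads in both, replicate 2 is the deeper by that factor. The median gene-desert site was 87.0 steps high in replicate 1 and 116 in replicate 2. Total read numbers are not given in the files.

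**Figure D3:**
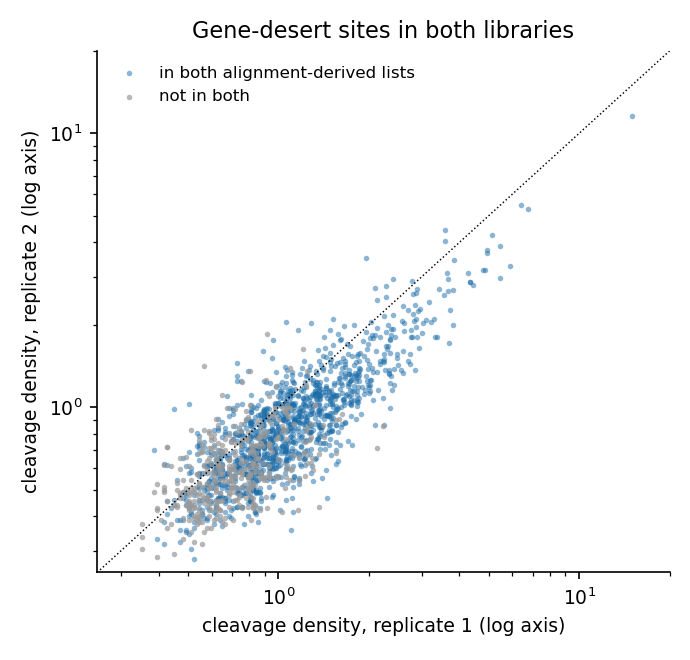
Cleavage density of each gene-desert site in replicate 1 (horizontal, log axis) and replicate 2 (vertical, log axis), with sites found in the alignment-derived lists of both libraries in blue and the others in grey. Replicate 1 is higher at 80.6% of sites, and the site near Irf2bp2, at 15.0 and 11.6, stands apart at the top right.

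The peaks that both libraries shared were the stronger ones. Of 1982 replicate 1 peaks in gene deserts, 80.1% (95% Wilson interval 78.3 to 81.8) overlapped a replicate 2 peak. The shared ones had a median density of 0.931 and the unshared ones 0.642. Of 2351 replicate 2 peaks in gene deserts, 67.1% (65.2 to 69.0) were shared, with medians of 0.745 and 0.486. Intergenic peaks at 10 to 50 kb were shared at 80.5% and 71.4%, and peaks of all classes at 83.8% and 77.0%.

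A second set of peaks, called by the submitters from filtered alignments, listed most of these sites too. In the smaller of those lists, 1215 gene-desert sites (76.6%, 74.4 to 78.6) had a peak in both libraries, against 74.1% of all shared peaks, 71.8% (70.4 to 73.1) of intergenic sites at 10 to 50 kb and 70.2% (68.5 to 71.8) of sites deep within genes. At like strength in replicate 1 the gap to sites at 10 to 50 kb was wider up to the middle 20% of shared peaks and small above it. In the weakest 20% of shared peaks, 62.0% (58.6 to 65.3) of gene-desert sites were in both alignment-derived lists and 52.6% (50.1 to 55.2) of sites at 10 to 50 kb. In the next 20% the shares were 86.7% (82.8 to 89.8) and 67.9% (65.1 to 70.5), and in the middle 20% they were 94.2% (90.6 to 96.4) and 84.0% (81.6 to 86.2). In the 20% above that they were 98.5% (94.7 to 99.6) and 95.2% (93.3 to 96.5), with overlapping intervals, and in the strongest 20% all 26 gene-desert sites and 99.3% of the others were in both lists. A base with FDR of 0.0001 or lower was present in 71.4% of gene-desert sites in replicate 1 and 78.0% in replicate 2, against 74.1% and 77.2% of all shared peaks. The 372 sites missing from at least 1 alignment-derived list were weaker, with median percentiles of 6.33 and 7.41, against 26.8 and 27.1 for the others.

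Footprints were about as common as over all shared peaks, and somewhat less common than in the nearest distal classes. Both libraries had at least 1 footprint in 1361 sites (85.8%, 84.0 to 87.4), against 86.0% of all shared peaks and 83.5% of promoter sites. The share was 89.4% (88.5 to 90.3) of intergenic sites at 10 to 50 kb and 89.2% (88.1 to 90.3) of sites deep within genes. For gene-desert sites the shares were 89.4% in replicate 1 alone and 94.8% in replicate 2 alone, against 88.9% and 92.7% of all shared peaks. The gene-desert share in both rose with strength, from 75.9% in the weakest 20% of shared peaks to 93.9%, 96.9% and 99.3% in the next bins, and to all 26 sites in the strongest. Among intergenic sites at 10 to 50 kb it was 77.5% in the weakest bin and 91.5% in the next. The median site held 2 footprints in replicate 1 and 3 in replicate 2. No footprint in either library was found in 26 sites (1.64%), whose median percentiles were 2.85 and 4.55.

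The base composition of the sites differed from that of the DNA around them. Median GC content over the central 151 bp was 51.7%, against 43.4% in windows 1 kb to each side. Repeats were sparse: 996 sites (62.8%) held no repeat base there, against 67.2% of all shared peaks, and 15 sites were at least 50% repeat. The mean repeat share of bases was 6.90% in the sites and 6.05% over all shared peaks. It was 23.4% in windows 1 kb to each side and 39.4% in all windows of desert DNA. CpG-rich sequence of the kind found at most promoters (GC of at least 55% and a CpG ratio of at least 0.6) made up 54 sites (3.40%), against 37.7% of all shared peaks and 7.14% of intergenic sites at 10 to 50 kb. Those 54 stood at percentiles 40.7 and 37.6, against 18.4 and 19.9 for the others.

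E-boxes, GC boxes, CTCF, NFI and RFX matches were more frequent in the sites than in the DNA beside them. Matches on either strand were counted in the central 151 bp. The 2 E-boxes were the most frequent: the neuronal E-box CAGATG was in 365 sites (23.0%, 21 to 25.1), against 11.1% of windows 1 kb away and 13.2% of all shared peaks, and CAGCTG in 347 (21.9%, 19.9 to 24.0), against 6.18% and 14.4%. Either was in 645 sites (40.6%). CTCF, searched as CCA, any 2 bases, AG, any 2 bases and GGC, was in 155 sites (9.77%, 8.40 to 11.3), against 0.599% of windows 1 kb away, 0.395% of all windows of desert DNA and 8.71% of all shared peaks. NFI, searched as TTGGC, any 5 bases and GCC, was in 72 sites (4.54%, 3.62 to 5.68), against 0.441% of the windows 1 kb away and 2.60% of all shared peaks. RFX, searched as the first 10 capitals of the RFX site printed above, was in 30 sites (1.89%, 1.33 to 2.69), against 1 of 3174 windows 1 kb away and 1.10% of all shared peaks.

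GC boxes (GGGCGG), frequent at promoters, were in 110 sites (6.93%, 5.78 to 8.29), against 1.45% (1.09 to 1.93) of windows 1 kb away and 28.3% of all shared peaks. MEIS (TGACAG) was in 13.1% (11.5 to 14.9) of sites and 9.99% (8.99 to 11.1) of the windows, with 11.1% of all shared peaks. AP-1 (TGANTCA) was in 97 sites (6.11%, 5.04 to 7.40), against 4.88% (4.19 to 5.69) of windows 1 kb away and 3.90% of all shared peaks. POU (ATGCAAAT) was in 1.26% of both sites and windows 1 kb away, and in 0.848% of all shared peaks. MEF2 (CTA, any 4 bases and TAG) was in 1.89% of sites and 2.87% of the windows, with 1.60% among all shared peaks, and the homeobox motif TAATTA in 3.21% and 5.14%, with 1.37%. The nuclear receptor motif AGGTCA was in 3.97% (3.12 to 5.05) of sites, against 9.17% (8.21 to 10.2) of the windows and 4.82% of all shared peaks. SOX (AACAATGG) was in 6 sites (0.378%, with 0.316% of all shared peaks). TEAD (GGAATG) was in 9.51% of sites and 8.57% of the windows, with 6.93% of all shared peaks, and FOX (TGTTTAC) in 1.64% and 2.43%, with 1.23%. Motifs frequent at promoters were rare: ETS (CCGGAAG) was in 11 sites, against 5.29% of all shared peaks, the CRE (TGACGTCA) in 4, against 1.39%, EGR in 3, against 0.549%, and NRF1 in 2, against 0.708%. REST (TTCAGCACC) was in 3 sites, with 0.238% of all shared peaks. GC content differs between sites and windows, and its part in these shares was not tested. None of the 20 motifs was found in 450 sites (28.4%).

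The motif mix was set beside that of other distal sites. CTCF matches were in 14.9% of intergenic sites at 10 to 50 kb, 17.4% at 1 to 10 kb and 10.7% of sites deep within genes. In the weakest 20% of shared peaks the CTCF share was 8.42% (6.69 to 10.5) in gene deserts and 9.65% (8.25 to 11.2) at 10 to 50 kb, with overlapping intervals, and in the next 20% it was 9.70% (7.05 to 13.2) and 16.1% (14.1 to 18.3), without overlap. Sites deep within genes had 10.8% (8.86 to 13.0) in that second bin. In the middle 20% the shares were 13.2% (9.59 to 17.9) in gene deserts and 18.9% (16.5 to 21.4) at 10 to 50 kb. There and in the stronger bins the gene-desert share was the lower and the intervals overlapped. NFI was in 3.11% of sites at 10 to 50 kb and 3.87% of sites deep within genes, and the latter value lies inside the interval of the gene-desert sites. The neuronal E-box was in 20.8% of sites at 10 to 50 kb and 23.5% deep within genes, CAGCTG in 18% and 21%, and GC boxes in 9.39% and 7.10%. Of the 155 gene-desert sites with CTCF, 40 also held an E-box, which 645 of all 1587 held. Sites with a CTCF match were at percentiles 24.1 and 19.3 and sites without at 19.1 and 20.4, and the 30 sites with RFX were at 36.7 and 45.7.

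**Figure D4:**
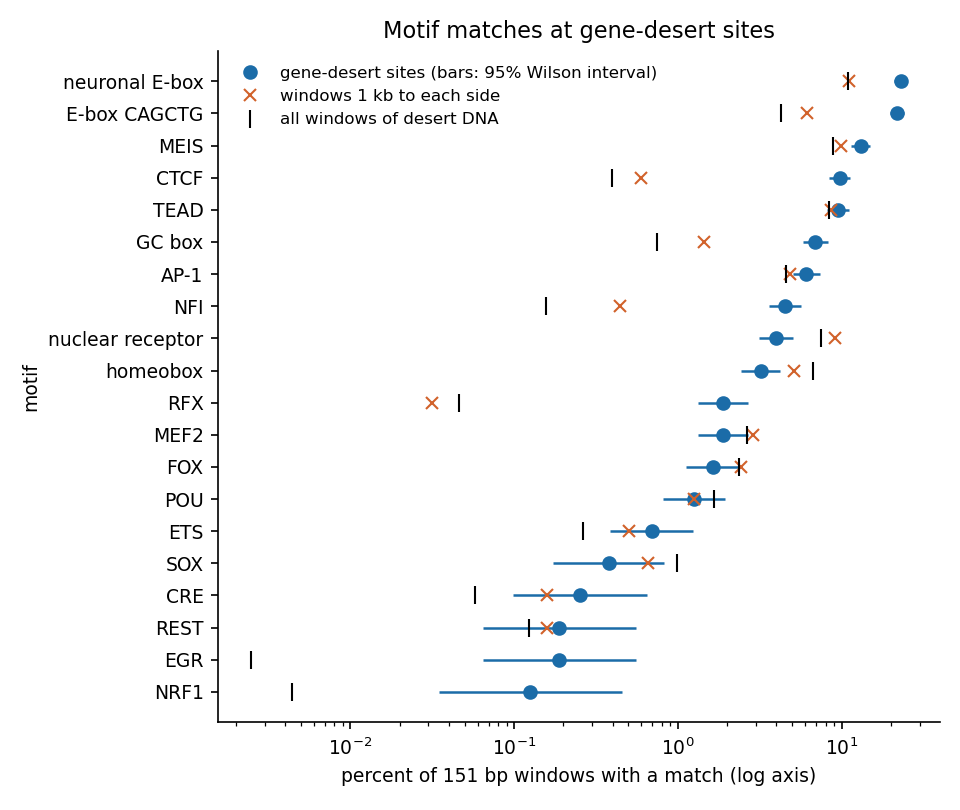
Percent of 151 bp windows with a match to each of 20 motifs (horizontal, log axis) for gene-desert sites (points, 95% Wilson intervals), windows 1 kb to each side (crosses, left out where no window matched) and all windows of desert DNA (ticks). The largest separations with more than 10 sites are RFX (1.89% of sites against 0.0315% of windows beside them), CTCF (9.77% against 0.599%) and NFI (4.54% against 0.441%).

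CTCF, NFI and RFX matches, and to a lesser degree GC box, ETS and E-box matches, overlapped footprints more often than like positions without the motif. Over the whole peaks, 186 CTCF matches were found, of which 70.4% (63.5 to 76.5) overlapped a footprint in replicate 1 and 80.1% (73.8 to 85.2) in replicate 2. The same offsets from the midpoint in gene-desert sites without the motif overlapped one in 25.9% and 30.7%. For the 90 NFI matches the shares were 54.4% and 83.3%, against 26.7% and 31.2%. For the 44 RFX matches, some of which overlap each other as in the printed site, they were 63.6% and 77.3%, against 21.4% and 25.3%. Of these 3 motifs NFI differed most between the libraries. For the 208 GC box matches the shares were 31.2% and 41.8%, against 15.1% and 18.3%, and of the 19 ETS matches 8 and 7 overlapped a footprint, or 42.1% (23.1 to 63.7) and 36.8% (19.1 to 59.0), against 13.9% and 16.8%. For the 720 neuronal E-box matches the numbers were 144 and 186 (25.8% in replicate 2), against 15.1% and 18% at like positions, and for the 659 CAGCTG matches 20.3% and 24.0%, against 14.7% and 18%. AP-1 matches were at the level of like positions, with 14.7% and 15.6% against 14.3% and 17.4%. MEF2 had 17.9% in each, against 14.8% and 18%. FOX matches overlapped a footprint in 2 of 65 cases in each library, or 3.08% (0.848 to 10.5), against 12.7% and 15.7% at like positions.

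**Figure D5:**
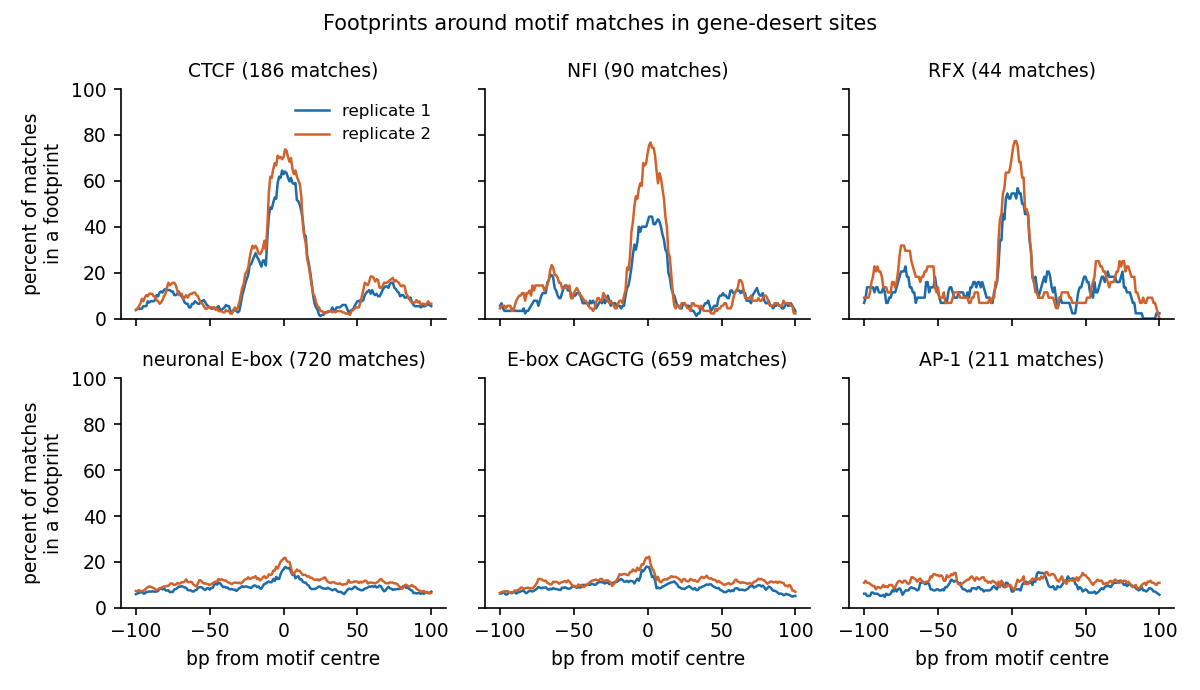
Percent of motif matches in gene-desert sites whose surrounding base lies in a footprint (vertical axis), by distance from the motif's centre in bp, for 6 motifs and both replicates. Within 5 bp of the centre the mean is 61.0% and 70.3% for CTCF and 41.4% and 69.4% for NFI, and 8.79% and 9.74% for AP-1, where the level at 50 to 100 bp is 8.02% and 11%.

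Most sites stood alone. Within 10 kb of the midpoint, 501 sites (31.6%, 29.3 to 33.9) had another gene-desert site, and 524 (33.0%, 30.7 to 35.4) had a shared peak of any class, against 61.1% of all shared peaks and 42.3% of intergenic sites at 10 to 50 kb. Sites deep within genes were at a like level of 33.8% (32.2 to 35.5). Promoter sites make up 49.5% of shared peaks, and 73.1% of them had such a neighbour. The rule keeps promoter sites beyond 10 kb of every gene-desert site, so part of the contrast with all shared peaks follows from the rule. Part of the neighbouring consists of peaks next to each other: 47 pairs of sites touch and 118 pairs lie less than 1 kb apart. Counting midpoints less than 1 kb apart as 1 site lowered the share with a gene-desert neighbour to 20.4% (18.4 to 22.6). Linking sites at gaps of up to 10 kb gave 1086 lone sites, 173 pairs, 31 groups of 3, 13 of 4 and 2 of 5.

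The largest groups spanned 2975 to 11268 bp. The group at chr3:21935561-21938535, 138 kb from Tbl1xr1, a subunit of the NCoR corepressor complex, held 5 sites with replicate 1 densities of 2.12, 3.67, 0.631, 0.749 and 0.845. Of these, 3 had a footprint in both libraries. The group at chr4:152614701-152625968, between the cilium gene Nphp4 and Ajap1, held 5 sites at 1.45, 0.963, 0.866, 1.38 and 2.35, all with a footprint in both libraries. Over all gene-desert sites the share with one in both was 85.8%. The strongest site of all belongs to a group of 4 at chr8:126665571-126668741 near Irf2bp2, whose other members had 1.36, 2.62 and 1.28 in replicate 1. Of these 4 sites, 2 had a footprint in both libraries. Another group of 4 lies at chr5:118321613-118331842 near 2410131K14Rik. All its members held a neuronal E-box, 1 of the 20 motifs searched, against 23.0% of all gene-desert sites. In this group and in the Nphp4 group a pair of members touches. A footprint in both libraries was present in 3 of these 4.

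The tissue label was checked at promoters rather than in deserts. Promoters of 12 of 12 autosomal pan-neuronal genes, 9 of 10 excitatory neuron genes, 8 of 10 astrocyte genes and 7 of 11 interneuron genes had a peak in both libraries. The counts were 2 of 9 for oligodendrocytes, 2 of 10 each for microglia and endothelium, 0 of 14 for hindbrain and spinal regulators and 1 of 12 (Apob) for liver. The share of all autosomal genes with such a promoter peak was not computed. The lists can thus be set beside each other but not beside a base level.

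The sites were then placed by their nearest protein-coding TSS, a label of position and not of a target gene. Of 2424 genes next to desert DNA, 819 (33.8%) had at least 1 site. Genes differ in the length of their desert DNA and in its distance from a TSS. The shares, medians and frequencies given for gene lists below are adjusted for neither. Tbl1xr1 had the most, 10 sites at 138 to 798 kb, with replicate 1 densities of 0.535 to 3.67. Nphp4 had 9 and so did Auts2, a gene of neuronal development, whose sites ran from 0.439 to 2.35. Sox9, Rragc (a GTPase of nutrient sensing by mTORC1), Xylt1 (which starts glycosaminoglycan chains) and Intu (a cilium gene) had 8 each. Tmem182, Pik3c3 (a lipid kinase of autophagy), Tle4, Sall1 and Epha4 had 7 each. Sox2, Castor2, Bmper, Tox3, Cdh26, Cryba4, Emp1 and Zdhhc25 had 6 each. Peaks that touch were counted as separate sites, as at Intu, Xylt1 and Tle4, so these counts can exceed the number of separate places. Relative to the length of desert DNA, Cryba4, with 53.6 sites per Mb, and Emp1, with 51.5, were the densest of these 20 genes, and Pik3c3, with 5.76, the least dense.

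Sox9, a regulator of glial fate whose wide flanks hold long-range enhancers in other tissues, had 3 sites on one side and 5 on the other. Those at the lower coordinates had densities of 0.492, 1.10 and 1.62 in replicate 1 and 0.441, 0.752 and 1.23 in replicate 2. The others had 1.04, 2.06, 1.13, 1.81 and 1.73 in replicate 1 and 0.836, 1.79, 0.869, 1.25 and 1.25 in replicate 2. The last 2 touch each other. All 8 had a footprint in both libraries, against 85.8% of all gene-desert sites. None had a CTCF match, which 9.77% of all gene-desert sites had. Sox2, a regulator of neural progenitors, had 6 sites 438 to 502 kb away, at 0.824 to 1.85 in replicate 1 and 0.629 to 1.25 in replicate 2. Sall1, a zinc-finger regulator whose promoter had a peak in both libraries, had 7 sites that were all below 1 in both libraries, at 0.481 to 0.877 and 0.382 to 0.966.

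Of 30 cortical regulator genes next to desert DNA, 13 (43.3%, against 33.8% of all genes) had a site, 26 in all, or 3.47 per Mb against 4.28 over all genes. Tle4, a corepressor of deep-layer neurons, had 7, with densities of 0.503 to 1.51 in replicate 1 and 0.421 to 1.04 in replicate 2. Id2, an inhibitor of bHLH factors, had 3 at 0.652 to 0.824 and 0.506 to 0.674. Neurod6, a bHLH factor of excitatory neurons, had 2 at 1.09 and 1.75 in replicate 1 and 1.04 and 1.26 in replicate 2. The other 17 genes had none, so that the median gene of the list had 0 sites per Mb, as had the median of all genes next to desert DNA.

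Interneuron regulators had a site in 5 of 9 genes (55.6%, against 33.8% of all genes), 13 in all, or 9.12 per Mb against 4.28. The median gene had 4.88 per Mb, against 0 over all genes. Dlx2, a homeobox gene of forebrain interneurons, had 3 sites within 52.2 to 80.8 kb of its TSS. Their density was 0.973 at each in replicate 1 and 1.04, 0.998 and 0.681 in replicate 2. Each had a footprint in both libraries, as had 85.8% of all gene-desert sites. Sox6 had 4 at 0.599 to 0.941 and 0.467 to 0.713, and a pair of them nearly touch. Maf had 3 at 0.652 to 1.07 and 0.369 to 1.11. These genes are few, and 1 of them, Dlx2, has only 0.0495 Mb of desert DNA.

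Adhesion genes had few sites for their length of desert DNA but not fewer genes with a site. Of 20 cadherin and protocadherin genes, 10 had a site, against 33.8% of all genes. This is not a comparison at like length, as these 20 genes had 19.7 Mb of desert DNA and all 2424 genes 371 Mb. These were 20 sites over 19.7 Mb, or 1.02 per Mb against 4.28, although the median gene, at 0.302 per Mb, was above the median of 0 over all genes. Cdh8 had 5 at 0.513 to 0.813 in replicate 1, and Pcdh20 3 at 0.471 to 0.545, 1.82 to 2.13 Mb away. A footprint in both libraries was found in 3 of the 5 Cdh8 sites and in all 3 of Pcdh20. Cdh20 had 2, of which one reached 3.68 in replicate 1 and 1.72 in replicate 2. Other synaptic adhesion genes had a site in 7 of 22 (31.8%), 14 in all over 12.4 Mb, or 1.13 per Mb, with a median gene at 0. Slitrk1 had 4 at 0.535 to 1.95. Flrt2 also had 4, among the weakest of all, at 0.353 to 0.524 in replicate 1 and 0.279 to 0.337 in replicate 2. Of the 4 Flrt2 sites, 1 had a footprint in both libraries, and all 4 of Slitrk1 did.

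Axon guidance genes had a site in 11 of 26 (42.3%, against 33.8% of all genes), 28 in all, or 2.79 per Mb against 4.28, with a median gene at 0 as over all genes. Epha4, an ephrin receptor, had 7 weak sites at 0.460 to 0.685 and 0.402 to 0.843, of which 4 had a footprint in both libraries. Some of the 7 lie less than 1 kb apart. Nrp1, a receptor for semaphorins and VEGF, had 5 at 0.620 to 1.12 and 0.421 to 1.02, of which 4 lie in a stretch of 581 kb towards Pard3 that held 9 sites in all. Of 4 immediate early genes next to desert DNA, 3 had a site (against 33.8% of all genes), at 4.55 per Mb against 4.28: Bdnf, a neurotrophin, had 2, at 1.30 and 0.471 in replicate 1 and 0.830 and 0.655 in replicate 2, and Nr4a2 and Nr4a3 had 1 each.

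Genes of other tissues were too few next to deserts to compare. The 2 hindbrain and spinal regulators there, with 0.0385 Mb of desert DNA, had no site. Of the liver genes only Apob was there, and it had 3 sites 649 to 949 kb away at 0.738 to 1.27 in replicate 1. No housekeeping gene of the list was next to desert DNA.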

How the data were processed

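DNase-seq of frontal cortex was analysed from the interval lists of 2 libraries in 1 group, made per library and not on pooled samples. Peaks carry a signal, a read-depth normalised cleavage density deposited by the authors. Hotspots carry the highest −log10 FDR, per the file headers. Footprint lists deposited by the authors hold a p-value of 0.01 throughout, which is the cutoff rather than a value of each footprint, and the deposited per-base tracks list bases with FDR under 0.05. For the aligner, the callers, their versions and any correction of footprints for the cutting preference of DNase I, the sources used here say nothing. Reads of an F1 cross mapped to one reference can favour one allele, which was not examined.

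The smaller of the 2 read-derived peak lists of each library was used, with GENCODE M21 and the GRCm38.p6 sequence, whose lower-case bases were taken as repeats. Peaks were placed by midpoint, and strength was ranked within each library. The replicate 2 density of a site is the highest among the replicate 2 peaks that it overlaps, so neighbouring sites can carry the same value. Motif letters were searched on both strands, with overlapping matches kept, in 151 bp windows, in windows 1 kb away and in desert DNA, and in whole peaks for footprints. Shares have 95% Wilson intervals, which cover counting error only, and frequencies per Mb have Poisson ones. No test over samples was made. Total depth per sample is unknown. Every density was a whole number of steps, to within 0.05 of a step.

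Named items were the 20 protein-coding genes nearest to most sites, the 10 strongest and 5 farthest sites, the 5 largest groups and the 3 genes of each list with most sites. Some items that this rule selects are not reported here. Other sites are named to fill out these, among them Sall1 and Sox2 sites, and were picked with their values in view. The members, gene lists and motifs were chosen with earlier results of these data known. The functions were tested on simulated data with planted answers. Python 3.11.15, numpy 2.4.6, pandas 2.3.3, scipy 1.17.1 and matplotlib 3.10.9 were used.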

Additional observations from a re-analysis of the deposited data

How the results depend on the processing

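Of 51 values under alternative settings, 25 stayed within 1.5 times (counts of sites), 1 SD (percentile) or the 95% interval (shares) of the values reported, and 26 moved. A base at FDR 0.0001 in the peaks of both libraries left 979 sites, with a median percentile of 16.8, a footprint in both libraries in 93.5% and a neighbour within 10 kb in 21.1%. The larger list from filtered alignments gave 2827 sites, of which 61.9% had footprints in both and 7.71% a CTCF match. A limit of 100 kb left 468 sites, at percentile 17.4, with CTCF in 7.26% and a neighbour in 24.4%. Protein-coding genes alone gave 5350 sites at percentile 24.4, with a neighbour in 38.1%. With 50% reciprocal overlap the neighbour share was 28.1%. Leaving out the peaks of replicate 1 or replicate 2, and so using every peak of the other library, gave 1982 to 2351 sites, percentiles of 18 to 20.3, footprints in both in 65.5% to 76.5%, CTCF in 7.95% to 9.28% and a neighbour in 33.4% to 36.2%. The footprint share there still drew on the footprints of both libraries, including the library whose peaks were left out. Alternatives chosen after seeing the data were the larger read-derived list (percentile 23.5, footprints in 75.5%, a neighbour in 37.0%), the smaller list from filtered alignments (percentile 18.2, a neighbour in 21.6%) and midpoints less than 1 kb apart counted once (a neighbour in 20.4%). The cause of these moves was not tested, apart from the number of peaks that each setting admits by construction. The smaller read-derived list, planned as an alternative, is the list used throughout and so was not run. No paired analysis was possible because there is 1 group. The number of reads behind a single site is unknown.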
